A study of Mus musculus with 9 samples.

Results

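Transcripts of 10 genes that make, break down, bind and sense retinoic acid were followed in cells sorted from mouse forelimb buds at E10.5. The genes are a list of names, with no threshold on their values. They are Aldh1a1, Aldh1a2 and Aldh1a3 for synthesis, Cyp26a1 and Cyp26b1 for breakdown, Crabp1 and Crabp2 for binding, and Rara, Rarb and Rarg as receptors. Every Affymetrix probe set whose annotation gives exactly 1 gene symbol, that symbol being one of these, was used. This gave 13 probe sets for the 10 genes, out of 45037 probe sets tested and 18193 genes with such a probe set. Aldh1a3 has 3 of them, Rarg has 2 and each other gene has 1, and the one with the highest mean over the 9 arrays is called the main probe set of its gene.

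The 9 arrays fall into 3 groups of 3, with replicates numbered 1 to 3. The PAX3-FKHR GFP+ group is GFP+ cells of Pax3PAX3-FKHR/GFP embryos. These express the fusion of PAX3 with FKHR, a stronger activator than Pax3, from the Pax3 locus after recombination by PGK-Cre. The mothers carried PGK-Cre with the GFP allele, and the fathers carried the conditional fusion allele. The control GFP+ group is GFP+ cells of Pax3GFP/+ embryos, so both GFP+ groups carry GFP in 1 copy of Pax3 and the control keeps a normal second copy. The GFP- group is cells without GFP from forelimb buds, whose genotype the labels do not give and on which the sources differ (Pax3GFP/+ or Pax3+/+). Cells of many embryos were pooled for a sample, and nothing states whether equal replicate numbers share a day or a litter, so p-values measure the spread between these pools. All values are the RMA values deposited by the authors on the log2 scale, where a difference of 1 is a doubling of signal, and values of different probe sets cannot be set against each other as amounts of transcript.

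Retinoic acid is made from vitamin A in a pair of oxidation steps, first to retinal and then, by the retinaldehyde dehydrogenases of the Aldh1a family, to the acid. Cyp26 enzymes of the cytochrome P450 family oxidise it to inactive products, Crabp proteins bind it in the cytoplasm, and the receptors Rara, Rarb and Rarg, paired with Rxr proteins, bind DNA and change transcription of target genes when it is present. In the early limb, Aldh1a2 of the flank and Cyp26b1 of the distal bud are known as the main source and sink of the signal.

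The GFP+ cells carried the signature of muscle progenitors. Of 7 measured genes of that list, 7 were called higher in control GFP+ and in PAX3-FKHR GFP+ cells than in GFP- cells. Of all genes by main probe set, 2.79% and 3.9% were called higher in these comparisons. Pax3 is 1 of the 7, and its locus carries the GFP used for the sort, so its call follows from the sort. The mean log2 levels of the list were 9.17 to 9.33 in PAX3-FKHR GFP+, 9.46 to 9.55 in control GFP+ and 5.02 to 5.53 in GFP- samples. Pax3 itself read 7.15, 6.83 and 7.33 in PAX3-FKHR GFP+ cells, 9.92, 8.94 and 10.22 in control GFP+ cells and 5.17, 5.14 and 4.77 in GFP- cells. The GFP- cells carried limb mesenchyme transcripts, such as Prrx1 and Hand2. The mean log2 level over the 10 genes of that list was 6.88 to 7.42 in PAX3-FKHR GFP+, 7.20 to 7.45 in control GFP+ and 9.09 to 9.49 in GFP- samples, on a scale that has no 0 for an absent transcript. Control GFP+ replicate 3 stood apart from its group, with an array weight of 0.236 against 0.604 to 2.69 for the other arrays, and values without it are given where a result rests on it. In bulk sorted samples, fewer cells of a type and less RNA per cell cannot be told apart.

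Receptors of retinoic acid bind repeated half-sites, and a repeat with a spacer of 5 bases is the classical element of genes that the signal switches on. The promoter windows of RefSeq (GRCm38.p6, 250 bases before to 50 after a gene's start) cover 8 of the 10 genes with 13 windows, none for Aldh1a3 or Crabp2. They were searched on both strands for direct repeats, which are 2 half-sites in a row with a spacer of 1, 2 or 5 bases between them. A half-site could have any of 4 forms. Each half-site was AGGTCA or one of its variants, namely AGTTCA, which makes up the Cyp26a1 repeat, then GGGTCA and, at the start of the Rarb repeat, GGTTCA. A repeat with a spacer of 5 was found for Rarb and Cyp26a1, and 32 of 32851 windows of all genes (0.0974%) hold one. Spacers of 1 and 2 occurred in 0.222% and 0.268% of all windows and in none of these 8 genes. The 2 sequences are shown because Rarb and Cyp26a1, the receptor and the enzyme that are best known as direct targets of the signal, are compared on the arrays below, with the half-sites in capitals.
Rarb: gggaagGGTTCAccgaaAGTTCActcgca
Cyp26a1: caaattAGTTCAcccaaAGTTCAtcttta
The printed stretch of Rarb, with 6 bases on each side of the repeat, lies at chr14:16575507-16575535 on the strand of the gene, and the repeat in it begins 53 bases before the gene's start. The printed stretch of Cyp26a1, with the same flanks, lies at chr19:37697770-37697798, on the opposite strand. A match of letters is a description of the window and does not show that a receptor bound there in these cells.

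None of the 10 genes was called between PAX3-FKHR GFP+ and control GFP+ cells, the comparison that asks what the fusion does in Pax3 progenitors. Calls needed a log2 difference of at least 0.5 in either direction and a limma p, adjusted over all probe sets by Benjamini-Hochberg, under 0.05. Of all probe sets, 0.395% were called higher and 0.142% lower in this comparison, and 0.61% and 0.203% of all genes by main probe set. At an unadjusted p under 0.05, Aldh1a2 and Crabp1 passed among the 10 genes, both with lower values in PAX3-FKHR GFP+ cells, as did 3227 of all probe sets (3.65% lower and 3.52% higher). With replicates blocked in a fit of the 6 arrays compared, with array weights, and with the local pooled error test of the study's methods, rebuilt here, 1 of the 10 genes was called, Aldh1a2. The median log2 difference of the 10 genes was -0.10, with 3 above 0 and 7 below. The median was -0.01 over all probe sets and -0.03 over the main probe sets of all genes. Shares at an unadjusted p are over all probe sets throughout, not over main probe sets, so they are not a like count for the genes.

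Between control GFP+ and GFP- cells, which sets Pax3 progenitors against other cells of the bud, Cyp26b1 and Rarg were called lower and none of the 10 genes was called higher. Over all probe sets 4.01% were called lower and 1.84% higher. Over the main probe sets of all 18193 genes, the like count, 1.93% were called lower and 2.79% higher. Cyp26b1, Crabp1, Crabp2 and Rarg were called lower in PAX3-FKHR GFP+ than in GFP- cells, and none higher. Here 4% of all probe sets were called lower and 2.8% higher, and 2.79% and 3.9% of all genes by main probe set. The median log2 difference of the 10 genes was -0.31 for control GFP+ and -0.69 for PAX3-FKHR GFP+ against GFP- cells, beside 0.06 and 0.04 over all probe sets. Over the main probe sets of all genes these medians were 0.08 and 0.05. At an unadjusted p under 0.05, 1 gene had higher and 5 had lower values in control GFP+ than in GFP- cells, beside 11.3% and 10.4% of all probe sets. In PAX3-FKHR GFP+ cells 0 had higher and 5 had lower values than in GFP- cells at that p. Of all probe sets, 9.68% were higher and a slightly larger share lower there (9096 in either direction). The 3 comparisons share arrays in pairs, so their values are given side by side and are not independent of each other.

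**Figure D1:**
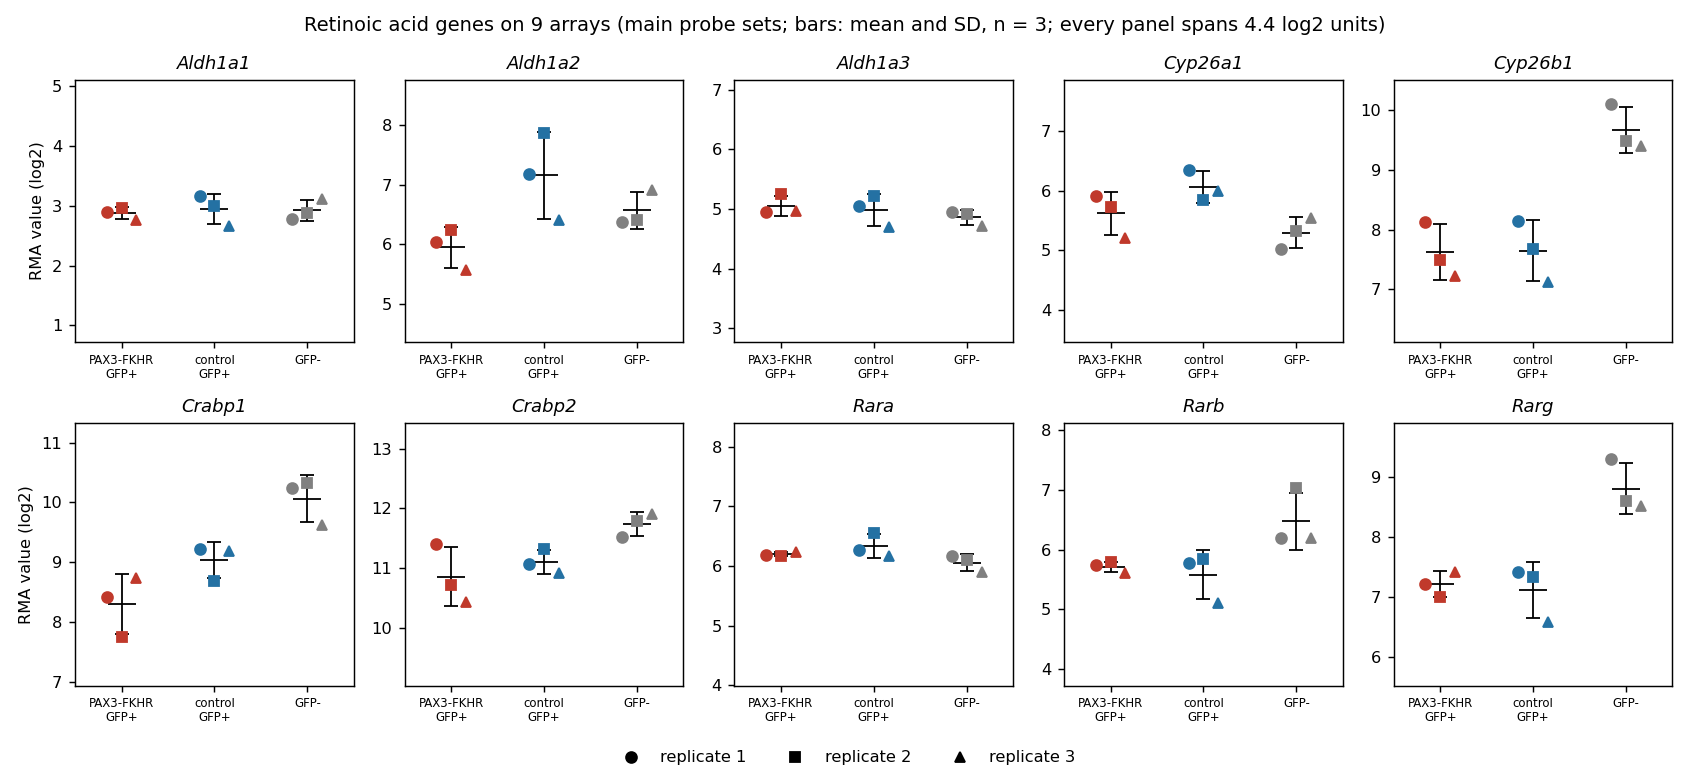
RMA values (log2) of the main probe set of each of the 10 genes on each of the 9 arrays, with the mean and SD of 3 arrays per group (bars) and replicate numbers as symbols; the panels have different positions on the axis but span the same range. Cyp26b1 and Rarg stand higher in all 3 GFP- samples than in all 6 GFP+ samples, and Aldh1a2 is lower in all 3 PAX3-FKHR GFP+ samples than in all 3 control GFP+ samples.

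**Figure D2:**
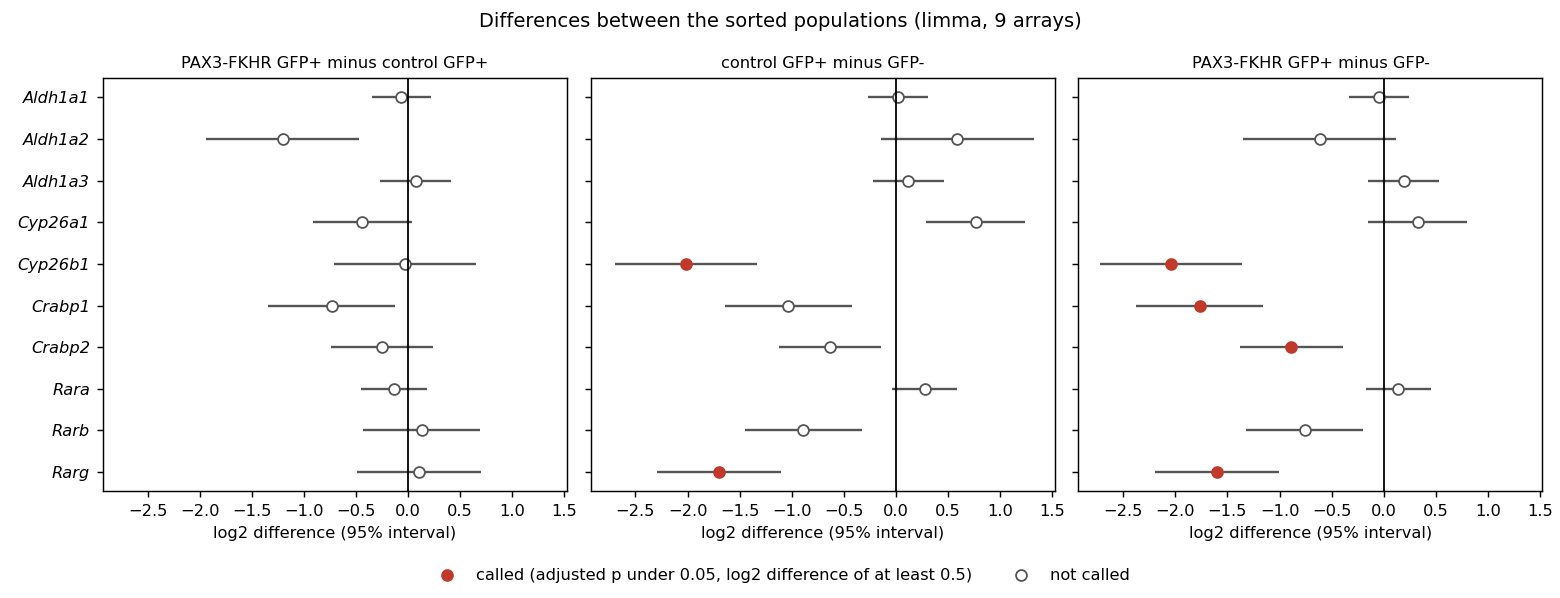
Log2 difference of each gene's main probe set with its 95% interval from the limma fit, for PAX3-FKHR GFP+ minus control GFP+ (left), control GFP+ minus GFP- (middle) and PAX3-FKHR GFP+ minus GFP- (right); filled points were called. No gene was called in the left panel, 2 were called in the middle panel and 4 in the right panel, all of them below 0.

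Among the synthesis genes, Aldh1a2 had the largest difference of the 10 genes between the GFP+ groups. Aldh1a2 encodes the dehydrogenase that makes most retinoic acid of the early embryo. Its values were 6.04, 6.24 and 5.56 in PAX3-FKHR GFP+ cells, 7.18, 7.86 and 6.41 in control GFP+ cells and 6.37, 6.41 and 6.91 in GFP- cells. Every PAX3-FKHR GFP+ sample lay below every control GFP+ and every GFP- sample, while the control GFP+ samples were spread over 1.45 log2 units and overlapped the GFP- samples. The means were 5.95 ± 0.35 in PAX3-FKHR GFP+, 7.15 ± 0.73 in control GFP+ and 6.56 ± 0.30 in GFP- cells (SD, n = 3 each). For PAX3-FKHR GFP+ minus control GFP+ the log2 difference was -1.20 (standard error 0.33, 95% interval -1.94 to -0.47), a signal 2.30-fold lower, with an adjusted p of 0.271 in limma. The interval of the single gene thus lay below 0, and the difference did not pass the adjustment over all probe sets.

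The order of Aldh1a2 levels was control GFP+ above GFP- above PAX3-FKHR GFP+, and neither neighbouring pair passed the test. Control GFP+ minus GFP- was 0.59 (standard error 0.33, adjusted p = 0.333) and PAX3-FKHR GFP+ minus GFP- was -0.62 (standard error 0.33, adjusted p = 0.340). The call between the GFP+ groups depended on how the arrays were treated. Same-numbered arrays of these 2 groups deviated together from their group means, by correlations of 0.164, 0.472 and 0.287, and the PAX3-FKHR GFP+ minus control GFP+ differences by number were -1.14, -1.62 and -0.85. Fitted on the 6 arrays compared with replicates as a block, Aldh1a2 was called (-1.20, adjusted p = 0.0257), and with the block in the fit of all 9 arrays it was not (adjusted p = 0.276). It was also called with array weights (-1.34, adjusted p = 0.0230) and with the local pooled error test (-1.14, adjusted p = 0.0337). Leaving out control GFP+ replicate 3 gave -1.57 (adjusted p = 0.0537) and leaving out control GFP+ replicate 2, the sample with the highest value, gave -0.85 (adjusted p = 0.439).

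Of 9 marker lists, 4 followed the order of Aldh1a2 within both GFP+ groups, with replicate 2 highest and replicate 3 lowest. The mean level of 4 neural crest and glia genes was 7.46, 8.00 and 7.30 in PAX3-FKHR GFP+ cells, 7.62, 8.15 and 6.76 in control GFP+ cells and 5.71, 5.78 and 5.92 in GFP- cells. The mean of 4 endothelial genes was 5.69, 6.11 and 5.40 in PAX3-FKHR GFP+ cells, 5.85, 6.78 and 5.63 in control GFP+ cells and 5.13, 5.58 and 6.12 in GFP- cells. No gene of the neural crest or endothelial list was called between the GFP+ groups, and for all 4 endothelial genes the PAX3-FKHR GFP+ mean was the lower one. The neural crest and glia genes went both ways in PAX3-FKHR GFP+ minus control GFP+. Sox10 (-0.58), Foxd3 (-0.75) and Ngfr (-0.30) were below 0 and Erbb3 (1.94) was above, so similar list means do not show equal levels of each gene. The mean of 5 blood and macrophage genes was 6.52, 7.29 and 5.60 in PAX3-FKHR GFP+ cells, 6.41, 7.22 and 5.48 in control GFP+ cells and 6.63, 8.02 and 8.42 in GFP- cells, with overlap of all 3 groups. The mean of 9 neuron genes was 5.36, 5.89 and 5.23 in PAX3-FKHR GFP+ cells, 5.51, 5.51 and 5.33 in control GFP+ cells and 4.30, 4.22 and 4.24 in GFP- cells. For this list control GFP+ replicates 1 and 2 were nearly level (5.506 and 5.510), so its order there is close to a tie. Stmn2, Mnx1, Lhx3 and Chat lay under the median of all values, as did Foxd3, Pecam1 and Hba-a1 of the other 3 lists. The part of the cells of these 4 lists in the Aldh1a2 values was not tested. The mean of 3 mesothelial genes, which mark a tissue rich in Aldh1a2, was 4.41 to 4.78 in PAX3-FKHR GFP+, 4.28 to 4.47 in control GFP+ and 4.41 to 4.93 in GFP- samples, with Upk3b and Msln under the median of all values.

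**Figure D3:**
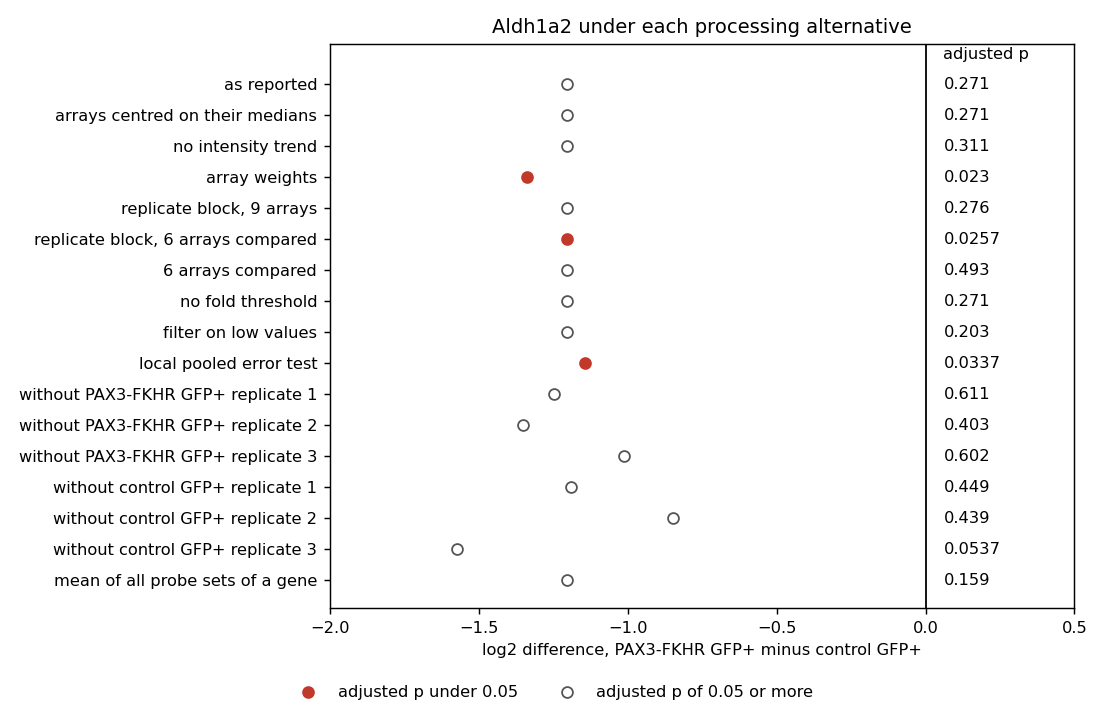
Log2 difference of Aldh1a2 between PAX3-FKHR GFP+ and control GFP+ cells under each processing alternative, with the adjusted p of each at the right; filled points have an adjusted p under 0.05. Every value lies below 0, from -1.57 to -0.85, and 3 alternatives give an adjusted p under 0.05.

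The other synthesis genes showed no called difference. Aldh1a1, the dehydrogenase of the dorsal eye and many adult tissues, had values of 2.89, 2.96 and 2.77 in PAX3-FKHR GFP+ cells, 3.16, 2.99 and 2.67 in control GFP+ cells and 2.78, 2.88 and 3.11 in GFP- cells. The groups overlapped throughout, and the mean of this probe set stood at the 9.28th percentile of all probe set means, a position on the signal scale at which presence of the transcript cannot be judged without detection calls. The difference between PAX3-FKHR GFP+ and control GFP+ cells was -0.06 (95% interval -0.35 to 0.22), and the adjusted p in the 3 comparisons was 0.886 to 0.953.

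Aldh1a3, the dehydrogenase of the ventral eye and nasal region, was read by 3 probe sets that differed in behaviour. The main one, 1427395_a_at, had 4.96, 5.25 and 4.96 in PAX3-FKHR GFP+ cells, 5.04, 5.21 and 4.69 in control GFP+ cells and 4.95, 4.92 and 4.72 in GFP- cells. Its difference between PAX3-FKHR GFP+ and control GFP+ cells was 0.07 (95% interval -0.27 to 0.41), and the sign was negative on the others, with -0.21 on 1417642_at and -0.44 on 1448789_at (adjusted p = 0.793 and 0.769). The dimmest, 1448789_at, had 3.08, 3.35 and 3.24 in PAX3-FKHR GFP+ cells, 3.38, 4.34 and 3.26 in control GFP+ cells and 2.91, 3.01 and 2.47 in GFP- cells. On it every GFP+ sample lay above every GFP- sample, and control GFP+ minus GFP- was 0.86 (standard error 0.25, adjusted p = 0.0727). On the main probe set the same difference was 0.12 (adjusted p = 0.684) and on 1417642_at it was 0.36 (adjusted p = 0.148), so control GFP+ minus GFP- was positive on all 3 probe sets and called on none, while the sign between the GFP+ groups differed by probe set.

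**Figure D4:**
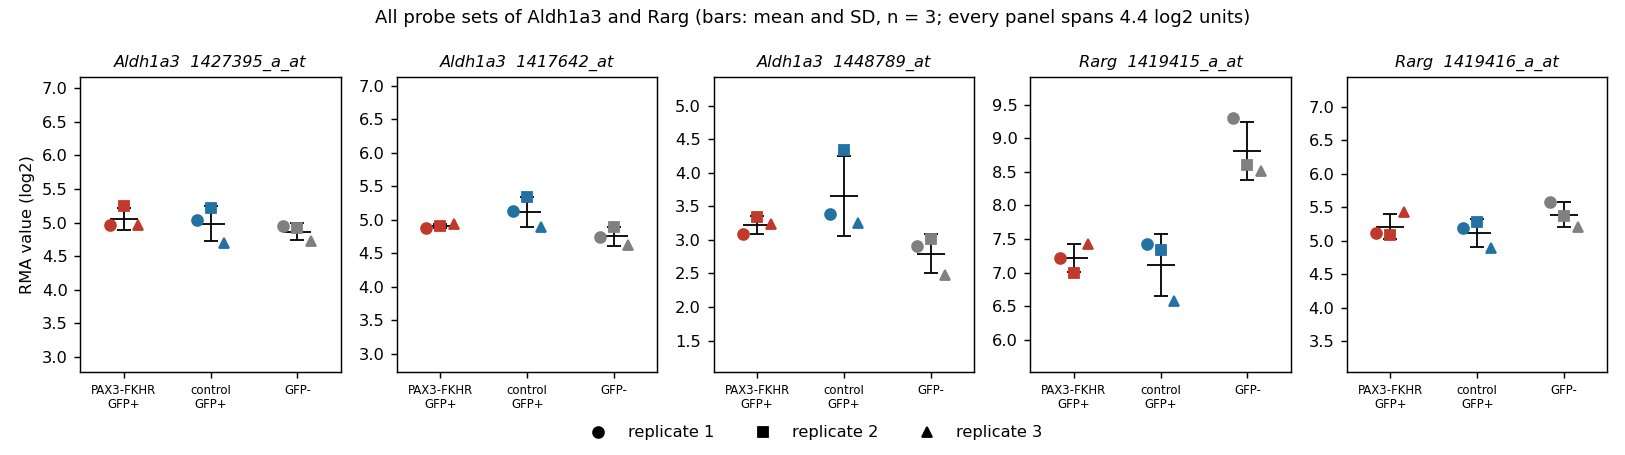
RMA values (log2) of the 3 probe sets of Aldh1a3 and the 2 of Rarg on each array, with the mean and SD of 3 arrays per group. The first Rarg probe set separates the GFP- samples (8.52 to 9.31) from all GFP+ samples (6.58 to 7.42), while on the second the groups overlap.

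The breakdown enzymes had differences of opposite sign between GFP+ and GFP- cells, of which that of Cyp26b1 was called and that of Cyp26a1 was not. Cyp26b1, which clears retinoic acid from the distal limb bud, had values of 8.13, 7.50 and 7.23 in PAX3-FKHR GFP+ cells, 8.14, 7.68 and 7.12 in control GFP+ cells and 10.11, 9.48 and 9.40 in GFP- cells. All 6 GFP+ samples lay below all 3 GFP- samples, with a gap of 1.26 log2 units, and the GFP+ groups overlapped. Control GFP+ minus GFP- was -2.02 (standard error 0.31, adjusted p = 0.00442), a signal 4.05-fold lower, and PAX3-FKHR GFP+ minus GFP- was -2.05 (standard error 0.31, adjusted p = 0.00294), 4.13-fold lower. Cyp26b1 was the gene of the 10 with the largest difference in both comparisons and was called under each alternative tried. PAX3-FKHR GFP+ minus control GFP+ was -0.03, with a 95% interval of -0.71 to 0.66 that leaves room for a change of up to 1.63-fold.

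Cyp26a1, an enzyme that retinoic acid itself induces and whose promoter holds the repeat printed above, had values of 5.91, 5.73 and 5.21 in PAX3-FKHR GFP+ cells, 6.35, 5.83 and 5.99 in control GFP+ cells and 5.02, 5.31 and 5.54 in GFP- cells. Every control GFP+ sample lay above every GFP- sample, and the PAX3-FKHR GFP+ samples overlapped both. The control GFP+ minus GFP- difference was 0.77 (standard error 0.22, 95% interval 0.29 to 1.24), a signal 1.70-fold higher that did not pass the adjustment (adjusted p = 0.0650 in limma). With array weights it was called, at 0.93 (adjusted p = 0.0138). PAX3-FKHR GFP+ cells differed from control GFP+ cells by -0.44 (standard error 0.22, adjusted p = 0.737) and from GFP- cells by 0.33 (adjusted p = 0.452).

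Both binding proteins had their highest values in GFP- cells and their lowest mean in PAX3-FKHR GFP+ cells. Crabp1, which binds retinoic acid in the cytoplasm and is abundant in embryonic mesenchyme and neural crest, had 8.41, 7.75 and 8.74 in PAX3-FKHR GFP+ cells, 9.23, 8.69 and 9.18 in control GFP+ cells and 10.24, 10.33 and 9.62 in GFP- cells. All GFP+ samples lay below all GFP- samples, and the highest PAX3-FKHR GFP+ sample just exceeded the lowest control GFP+ sample. PAX3-FKHR GFP+ minus GFP- was -1.77 (standard error 0.27, adjusted p = 0.00361), a signal 3.40-fold lower, and was called under each alternative tried. Control GFP+ cells differed from GFP- cells by -1.03 (standard error 0.27), 2.05-fold lower, and missed the threshold with an adjusted p of 0.0537. It was called with array weights, with a filter on low values, with the local pooled error test, with the gene-level fit and without GFP- replicate 3 (adjusted p from 0.0171 to 0.0481). PAX3-FKHR GFP+ minus control GFP+ was -0.73 (standard error 0.27, adjusted p = 0.584), and the differences by replicate number were -0.82, -0.93 and -0.45.

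Crabp2, which hands retinoic acid to its receptors in the nucleus, had 11.40, 10.72 and 10.43 in PAX3-FKHR GFP+ cells, 11.07, 11.31 and 10.92 in control GFP+ cells and 11.51, 11.79 and 11.91 in GFP- cells. Again all GFP+ samples lay below all GFP- samples, and the 2 GFP+ groups overlapped. PAX3-FKHR GFP+ minus GFP- was -0.89 (standard error 0.22, adjusted p = 0.0379), 1.85-fold lower, while control GFP+ minus GFP- was -0.64 (standard error 0.22, adjusted p = 0.127). The Crabp2 call was lost with no intensity trend (adjusted p = 0.0503), on the 6 arrays alone (0.0567) and with the replicate block on them (0.101). It was also lost without PAX3-FKHR GFP+ replicate 2 (adjusted p = 0.147), without PAX3-FKHR GFP+ replicate 3 (0.121), and without GFP- replicate 1, 2 or 3 (0.0579, 0.114 and 0.111). The GFP+ groups differed by -0.25 (PAX3-FKHR GFP+ minus control GFP+, 95% interval -0.74 to 0.24).

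Of the receptors, Rarg and Rarb lay lower in all GFP+ than in all GFP- samples, with only Rarg called, and Rara overlapped. Rarg, the receptor of limb mesenchyme and cartilage, had 7.22, 7.00 and 7.42 in PAX3-FKHR GFP+ cells, 7.42, 7.34 and 6.58 in control GFP+ cells and 9.31, 8.61 and 8.52 in GFP- cells on its main probe set, 1419415_a_at. All GFP+ samples lay at least 1.09 log2 units below all GFP- samples. Control GFP+ minus GFP- was -1.70 (standard error 0.27, adjusted p = 0.00518), 3.25-fold lower, and PAX3-FKHR GFP+ minus GFP- was -1.60 (standard error 0.27, adjusted p = 0.00533), 3.03-fold lower. Its other probe set, 1419416_a_at, had 5.12, 5.09 and 5.43 in PAX3-FKHR GFP+ cells, 5.20, 5.28 and 4.89 in control GFP+ cells and 5.58, 5.37 and 5.21 in GFP- cells. There the groups overlapped and the differences were -0.27 (adjusted p = 0.352) and -0.17 (adjusted p = 0.598), so the Rarg calls rest on 1 of 2 probe sets. Between the GFP+ groups the main probe set differed by 0.10 (95% interval -0.50 to 0.70).

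Rarb, the receptor gene whose promoter holds the repeat printed above, had 5.74, 5.79 and 5.62 in PAX3-FKHR GFP+ cells, 5.79, 5.85 and 5.11 in control GFP+ cells and 6.19, 7.03 and 6.20 in GFP- cells. All GFP+ samples lay below all GFP- samples, of which replicate 2 was the highest. Control GFP+ minus GFP- was -0.89 (standard error 0.25, adjusted p = 0.0676 in limma) and PAX3-FKHR GFP+ minus GFP- was -0.76 (standard error 0.25, adjusted p = 0.111), and neither was called. With array weights both were called (adjusted p = 0.0237 and 0.0195), and with the replicate block on all 9 arrays the first was (adjusted p = 0.0280). Rarb and Cyp26a1, the 2 genes with the repeat, therefore had differences of opposite sign between control GFP+ and GFP- cells, -0.89 and 0.77. Rarb differed by 0.13 between PAX3-FKHR GFP+ and control GFP+ cells (95% interval -0.43 to 0.69).

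Rara, a receptor found in most tissues, had 6.18, 6.17 and 6.24 in PAX3-FKHR GFP+ cells, 6.28, 6.55 and 6.18 in control GFP+ cells and 6.18, 6.10 and 5.90 in GFP- cells. All 9 samples lay within 0.65 log2 units, and the GFP+ groups overlapped each other and the GFP- group. Its differences were -0.14 between PAX3-FKHR GFP+ and control GFP+ (95% interval -0.45 to 0.18), 0.28 between control GFP+ and GFP- (adjusted p = 0.290) and 0.14 between PAX3-FKHR GFP+ and GFP- cells (adjusted p = 0.646).

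The 4 genes called against GFP- cells moved beside the mesenchyme genes of the sort. Of the 10 limb mesenchyme genes, 9 were called lower in control GFP+ and 10 in PAX3-FKHR GFP+ than in GFP- cells, with median log2 differences of -2.05 and -2.25, and 0 were called between the GFP+ groups. Limb ectoderm genes were lower too. Of 8, 2 were called lower in control GFP+ and 2 in PAX3-FKHR GFP+ than in GFP- cells, with medians of -1.12 and -1.34. At an unadjusted p under 0.05, 7 of the 8 were lower in each comparison, and 1 was higher in the second. Of all genes by main probe set, 1.93% and 2.79% were called lower. The part of mesenchyme, ectoderm or other cells in the values of Cyp26b1, Rarg, Crabp1 and Crabp2 was not tested. By Pearson correlation over the 9 arrays, the genes most like Cyp26b1 among 18192 others were Cbln1 (0.98), Zic5 (0.98), Pcdh18 (0.98), Tnfaip6 (0.98) and Hand2 (0.98), of which Hand2 is a limb mesenchyme gene of the list. Hand2 differed by -2.33 and Zic5 by -2.88 between control GFP+ and GFP- cells. The genes most like Aldh1a2 were Adamts9 (0.97), Otor (0.95), Esr1 (0.93), Tmod3 (0.93) and Dach1 (0.92). Each of these 5 had a negative difference between PAX3-FKHR GFP+ and control GFP+ cells, from -0.90 for Dach1 to -0.30 for Esr1. These likenesses are descriptions over 9 arrays that share the 3 groups, and the genes were picked for them.

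Other genes of the pathway were read from a list of 33, of which 28 were analysed here. Of the 28, 1 was called lower and 0 higher in PAX3-FKHR GFP+ than in control GFP+ cells, beside 0.203% and 0.61% of all genes by main probe set. Their median difference was -0.06. At an unadjusted p under 0.05, 7 had lower and 0 had higher values, beside 3.65% and 3.52% of all probe sets. The called gene was Aldh1a7, a close paralogue of Aldh1a1 that lies next to it on chromosome 19 and whose part in making retinoic acid is not settled. Aldh1a7 had 4.04, 4.22 and 3.88 in PAX3-FKHR GFP+ cells, 5.34, 5.96 and 6.39 in control GFP+ cells and 3.91, 4.22 and 3.86 in GFP- cells. It was thus high in the control GFP+ samples alone, with a difference of -1.85 (standard error 0.23, adjusted p = 0.00622) for PAX3-FKHR GFP+ minus control GFP+ and 1.90 (standard error 0.23, adjusted p = 0.00127) for control GFP+ minus GFP-. The probe set of Aldh1a1 did not move with it. Aldh1a7 is in the study's own tables chosen on these arrays, which are therefore not independent evidence of its direction. The list was chosen with earlier results of these data known, so its count beside the share of all genes is a description only.

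Between control GFP+ and GFP- cells, 3 of the 28 genes were called higher (Aldh1a7, Rdh10 and Rbp4), 1 lower (Cyp1b1) and 24 were not called. Of all genes by main probe set, 2.79% were called higher and 1.93% lower. The median difference of the 28 was 0.16. Rdh10, the enzyme of the first oxidation step in the embryo, had 7.80, 7.87 and 7.83 in PAX3-FKHR GFP+ cells, 8.31, 8.71 and 8.36 in control GFP+ cells and 7.36, 7.60 and 7.82 in GFP- cells. The difference of control GFP+ minus GFP- was 0.87 (standard error 0.16, adjusted p = 0.0124), called on 2 of 2 probe sets. This call was lost with the local pooled error test (0.76, adjusted p = 0.208) and with the replicate block on the 6 arrays (adjusted p = 0.0792). PAX3-FKHR GFP+ minus control GFP+ was -0.63 (standard error 0.16, adjusted p = 0.229) with no overlap of the samples. Rdh10 and Aldh1a2, which act one after the other, both had their highest mean in control GFP+ cells. For Aldh1a2 the difference of control GFP+ minus GFP- (0.59, adjusted p = 0.333 in limma) was not called. Neither gene was called between the GFP+ groups in the fit reported, and a link between the 2 genes was not tested.

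Rbp4, the carrier of retinol in blood, averaged 6.19 ± 0.16 in PAX3-FKHR GFP+, 7.04 ± 0.71 in control GFP+ and 5.56 ± 0.19 in GFP- cells (SD, n = 3 each), with 7.85 in control GFP+ replicate 3. The rise in control GFP+ over GFP- cells was 1.48 (adjusted p = 0.0150), and 1.07 (adjusted p = 0.00558) without control GFP+ replicate 3. The Rbp4 call was lost without GFP- replicate 3 (adjusted p = 0.0579) and with the replicate block on the 6 arrays (0.0996). Cyp1b1, a cytochrome P450 that can oxidise retinol, averaged 5.51 ± 0.29 in PAX3-FKHR GFP+, 5.88 ± 0.36 in control GFP+ and 6.86 ± 0.07 in GFP- cells. PAX3-FKHR GFP+ minus GFP- was -1.35 (adjusted p = 0.00270), and control GFP+ minus GFP- was -0.98 (adjusted p = 0.0178), each a call on 1 of 3 probe sets. Averaged over the probe sets these Cyp1b1 differences were -0.54 (adjusted p = 0.00857) and -0.38 (adjusted p = 0.0536). The control GFP+ call was also lost without any one of the GFP- samples, with the replicate block on the 6 arrays (adjusted p = 0.0611) and with the local pooled error test (0.247). The receptor coactivator gene Ncoa1 was called higher in PAX3-FKHR GFP+ than in GFP- cells by 0.93 (adjusted p = 0.0143), on 2 of 3 probe sets, and lost its call with the local pooled error test (adjusted p = 0.0725) and when either PAX3-FKHR GFP+ replicate 2 or GFP- replicate 2 was left out.

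**Figure D5:**
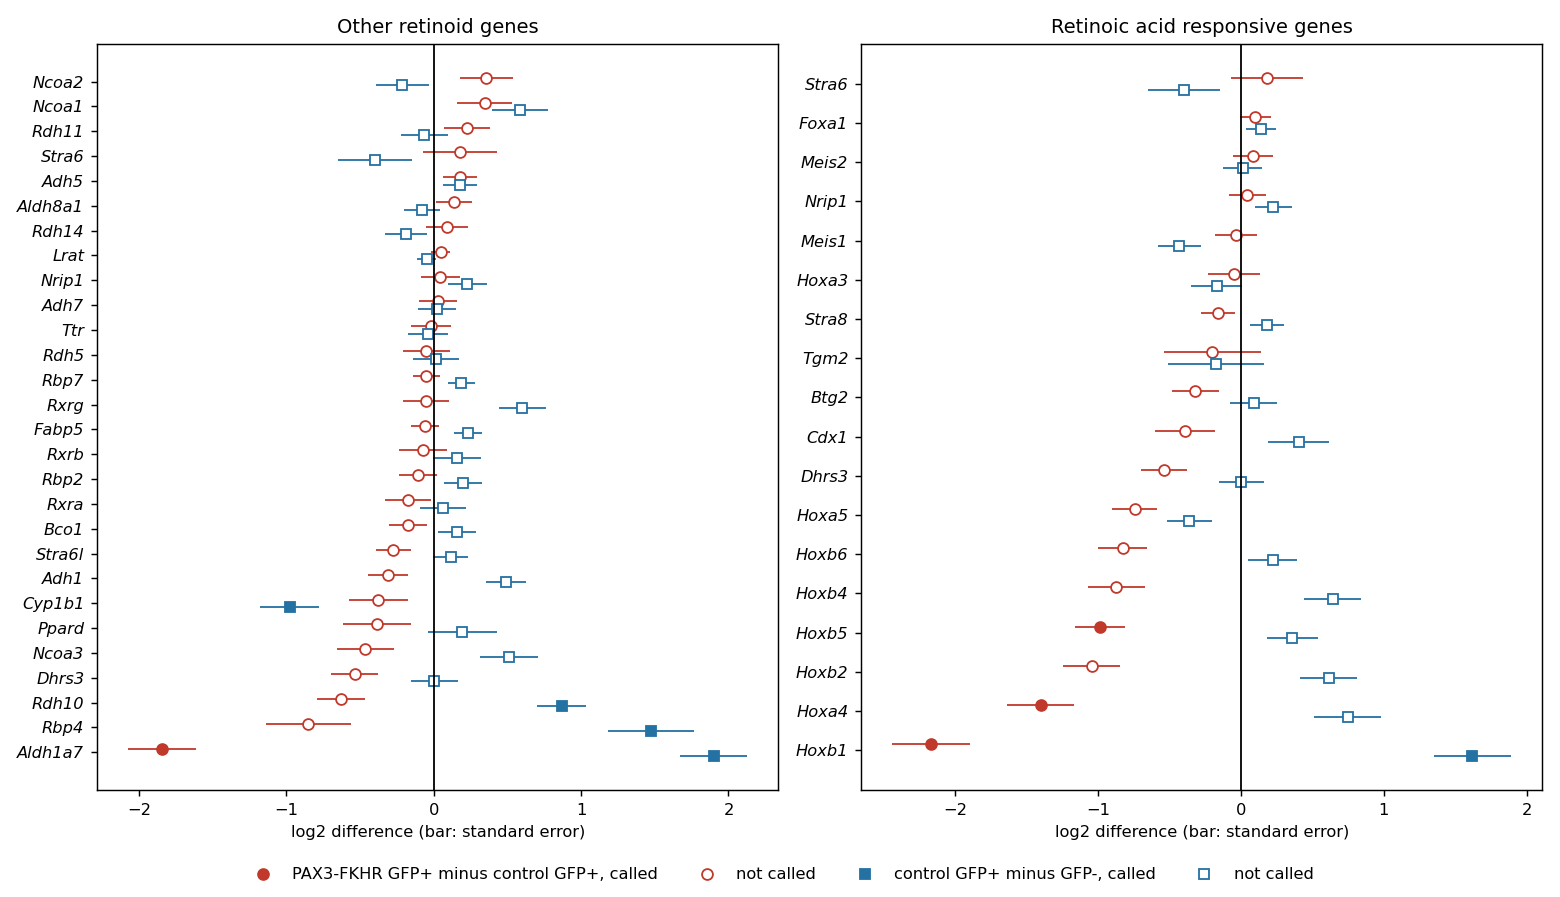
Log2 differences (points) and standard errors (bars) of 28 other retinoid genes (left) and 18 genes known to respond to retinoic acid (right), for PAX3-FKHR GFP+ minus control GFP+ (circles) and control GFP+ minus GFP- (squares); filled points were called, and Dhrs3, Nrip1 and Stra6 are in both panels. Aldh1a7 and Hoxb1 have filled points on both sides of 0, and 14 of the 18 responsive genes have their circle below 0.

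A list of 22 genes known to respond to retinoic acid in embryos or embryonic cells, had 18 members that were analysed here, of which 8 are Hox genes, known for setting position along the body axis. In PAX3-FKHR GFP+ cells, 3 of the 18 were called lower than in control GFP+ cells (Hoxa4, Hoxb1 and Hoxb5) and 0 higher, with a median difference of -0.35. Of all genes by main probe set, 0.203% were called lower and 0.61% higher. At an unadjusted p under 0.05, 8 had lower and 0 had higher values, beside 3.65% and 3.52% of all probe sets. Of these 8, 7 are Hox genes and Dhrs3 was the 1 gene among the 10 other members. Hoxb1 had 3.55, 2.91 and 3.38 in PAX3-FKHR GFP+ cells, 5.28, 4.92 and 6.15 in control GFP+ cells and 3.84, 3.93 and 3.72 in GFP- cells. As with Aldh1a7, the control GFP+ samples stood above both other groups, with differences of -2.17 (standard error 0.27, adjusted p = 0.00666) for PAX3-FKHR GFP+ minus control GFP+ and 1.62 (adjusted p = 0.00703) for control GFP+ minus GFP-. On the 6 arrays alone the first of these missed the threshold (adjusted p = 0.0566). Hoxa4 differed by -1.40 (adjusted p = 0.0316, on 1 of 2 probe sets) and Hoxb5 by -0.98 (adjusted p = 0.0444) between PAX3-FKHR GFP+ and control GFP+ cells.

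The Hoxa4 and Hoxb5 calls were fragile. Hoxa4 was lost without any one PAX3-FKHR GFP+ sample and without control GFP+ replicate 1 or 3, and Hoxb5 was lost without any one of the 6 samples compared, with adjusted p up to 0.120 and 0.177. Both were also lost with the replicate block on 9 arrays (0.0736 and 0.0970) and on the 6 arrays alone, and Hoxb5 with median centring and with the local pooled error test (0.605). The responsive list was also chosen with earlier results known, so its counts beside the shares of all genes are a description only. The study's tables also give Hoxa4 and Hoxb1 as lower in limb buds, but those limb values repeat the arrays used here. The study lists both genes as lower in somites too, from other samples that were not analysed here. Between control GFP+ and GFP- cells, 1 of the 18 was called higher (Hoxb1) and 0 lower, beside 2.79% and 1.93% of all genes by main probe set. At an unadjusted p under 0.05, 4 were higher and 2 lower (11.3% and 10.4% of all probe sets). Between PAX3-FKHR GFP+ and GFP- cells, 1 was called lower, Hoxa5 (-1.10, adjusted p = 0.00217, on 1 of 2 probe sets), and 0 higher. There 6 were lower and 1 higher at an unadjusted p under 0.05. Of all probe sets, 9.68% were higher and a slightly larger share lower at that p (9096 in either direction). Marker lists of other cells also differed between control GFP+ and GFP- cells, with 3 of 4 neural crest and glia genes called higher, and with 4 of 6 somite genes called higher and 1 lower. Their part in the Hox values was not tested.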

How the data were processed

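RNA of cells sorted by GFP from forelimb buds was amplified in 2 cycles and hybridised to 9 Affymetrix arrays. The authors deposited log2 values per probe set, made with RMA (background correction, a common intensity distribution, summary over probes). The version of RMA is not given in the sources used here. Array medians ran from 5.08 to 5.13, and the table holds no detection calls. After 64 array controls were set aside, 45037 probe sets were left, of which 34945 have 1 gene symbol in the platform annotation, 932 have several and 9160 have none. 

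All arrays were fitted in 1 model of 3 group means with limma 3.58.1 (R 4.3.3) and an intensity trend, and p-values were adjusted by Benjamini-Hochberg over all probe sets. The study's methods name the local pooled error test, which was rebuilt as an alternative (100 bins of intensity, smoothing spline of 10 degrees of freedom). The other alternatives were arrays centred on their medians, no trend, array weights, the replicate number as a block (on 9 arrays or on the 6 compared), the 6 arrays alone, no fold threshold, a filter on low values (above 5.108, the median of all values, on at least 3 arrays, 23557 kept), each array left out, and gene-level values averaged over a gene's probe sets (the gene-level fit). Precision is limited by the number of arrays, 3 in each group.

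Replicate numbers come from the sample titles. After removal of group means, the correlations between equal numbers of PAX3-FKHR GFP+ and control GFP+ were 0.164, 0.472 and 0.287, above those of every unequal pair, so the numbers were read as pairing these 2 groups. The fit reported has no block, and the fits with the block are alternatives. No such pattern was seen between equal numbers of GFP- and control GFP+ arrays (0.0651, 0.0682 and -0.205) or of GFP- and PAX3-FKHR GFP+ arrays (-0.237, 0.155 and -0.288). The scripts were tested on simulated data.

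The 10 genes and the gene lists were chosen with earlier results of these data known. All 10 genes are named, with the list genes called in a comparison (up to 6 per direction) and the 5 genes most correlated with the gene of the largest difference in each of 2 comparisons. Some genes of these lists are not reported here. Promoter sequences are from RefSeq, and no gene coordinates were taken for the array, which names no genome build.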

Additional observations from a re-analysis of the deposited data

How the results depend on the processing

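The calls of Cyp26b1 and Rarg (main probe set) against GFP- cells in both comparisons, of Crabp1 between PAX3-FKHR GFP+ and GFP- cells, and of Aldh1a7 held under each alternative tried. Of 673 single-gene values under the alternatives, 596 kept direction and call, 41 lost a call, 12 gained one and 24 changed sign. Between PAX3-FKHR GFP+ and control GFP+ cells, 1 of the 10 genes (Aldh1a2) was called lower, in place of 0, with array weights, with the replicate block on the 6 arrays and with the local pooled error test. Between control GFP+ and GFP- cells, array weights called 4 of them lower in place of 2 and 1 higher in place of 0. Where no pairing was found, the replicate block on 6 arrays left 1 other retinoid gene higher and 0 lower between control GFP+ and GFP- cells, in place of 3 and 1. The local pooled error test and the gene-level fit called 0 lower there, the gene-level fit 5 higher, and leaving out 1 array 0 to 1 lower. Between PAX3-FKHR GFP+ and GFP- cells the list had 2 lower, in place of 1, with no trend, array weights or the gene-level fit, and 2 higher, in place of 1, with array weights, the filter or the gene-level fit. There 3 were higher on the 6 arrays alone, 0 with the local pooled error test and 0 to 1 with 1 array left out. The counts of responsive genes under the alternatives were added after the values were seen. Between PAX3-FKHR GFP+ and control GFP+ cells, 3 lower became 7 with array weights, 6 in the gene-level fit, 1 with the replicate block on 9 arrays, 0 on the 6 arrays and 1 to 2 with 1 array left out. Between control GFP+ and GFP- cells, 1 higher became 2 with array weights, the local pooled error test or the gene-level fit and 0 with the filter, which removes Hoxb1, and 0 lower became 1 in the gene-level fit. Between PAX3-FKHR GFP+ and GFP- cells, 1 lower became 4 with no trend or with array weights, 3 with the filter and 5 in the gene-level fit. The block changed no other count by more than 1.5 times.

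None of the values that changed sign was called, and apart from Aldh1a3 at -0.44 on 1 probe set they were at most 0.22 in size. Between PAX3-FKHR GFP+ and control GFP+ cells, Rarb was at -0.041 with array weights, -0.047 with the local pooled error test and -0.10 to 0.26 with 1 array left out, and Rarg at -0.15, -0.12 and -0.17 to 0.26. Aldh1a3 was at -0.084 with the local pooled error test, -0.19 in the gene-level fit, -0.21 and -0.44 on its other probe sets and -0.0725 to 0.19 with 1 array left out. With 1 array left out, Cyp26b1 ranged from -0.29 to 0.22 and Aldh1a1 from -0.20 to 0.047. Aldh1a1 ranged from -0.093 to 0.16 between control GFP+ and GFP- cells and from -0.12 to 0.048 between PAX3-FKHR GFP+ and GFP- cells, where the local pooled error test gave 0.013. The cause of these shifts was not tested.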
